A study of Mus musculus with 6 samples.

Results

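Regulatory T cells (Tregs) are known to hold back other immune cells through a set of cytokines, surface proteins and enzymes, and 10 genes of such mediators were followed in Tregs sorted from lung tumors. They were picked as known mediators, with earlier results of these data in view, and matched by gene symbol. All 10 were found among the 15319 symbols of the count table: the cytokine genes Il10, Ebi3 and Il12a, the surface genes Lrrc32 and Nrp1, the growth factor gene Areg, the genes of the secreted proteins FGL2 and galectin-1, Fgl2 and Lgals1, and the ectoenzyme genes Entpd1 and Nt5e. The Tregs came from 2 groups of mice that both carried the Foxp3Yfp-cre allele on a C57BL/6J background. WT mice had this allele alone, and cKO mice, Xrcc6flox/floxFoxp3Yfp-cre, also had both copies of Xrcc6 flanked for deletion. Xrcc6 encodes Ku70, a DNA end-binding protein of double-strand break repair, and because Cre was made from the Foxp3 locus, the deletion was aimed at Foxp3-expressing cells. Mice of 8 to 10 weeks received 1000000 LLC cells, a mouse lung carcinoma line, through the tail vein, and their lung tumors were taken 21 days later. RNA-Seq was done on 3 libraries per group, WT and cKO. Whether each library came from 1 mouse or from pooled mice is not given in the sources used here, so the p-values below measure the spread between these libraries, which may be technical.

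Tregs restrain other T cells by several routes. IL-10 is secreted and acts through STAT3 in its target cells, and Ebi3 pairs with the p35 chain made from Il12a to form IL-35, or with p28 to form IL-27. GARP, the product of Lrrc32, docks latent TGF-beta on the Treg surface, from which integrins release it, and neuropilin-1, the product of Nrp1, is a coreceptor of semaphorins and VEGF that also binds TGF-beta. CD39, from Entpd1, cuts extracellular ATP and ADP to AMP, and CD73, from Nt5e, cuts AMP to adenosine, which acts on T cells through an adenosine receptor encoded by Adora2a. Amphiregulin, from Areg, is a ligand of the EGF receptor and is known in lung Tregs for its part in tissue repair.

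No difference between cKO and WT Tregs beyond the spread of the libraries was found in any of the 10 genes. edgeR's quasi-likelihood test called 0 of the 10 at a Benjamini-Hochberg adjusted p under 0.05, and 0 of them had an unadjusted p under 0.05. In the same test 0% of the 15315 genes with at least 1 count passed the adjusted limit and 1.81% passed the unadjusted one, while DESeq2 called 2 genes of the table, neither of them among the 10. In all 10 genes the values of the WT and cKO libraries overlapped, and the share of all genes whose groups did not overlap was 8.24%. The smallest p that an exact permutation test of 3 against 3 libraries allows is 0.1.

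The regulatory sequence just upstream of a gene is shown for those members in which the counts differed most from each other, Areg as the most abundant member per length with an entry, and the IL-35 partners Ebi3 and Il12a, of which 1 was well counted and the other hardly at all. The windows run from 250 bases before to 50 bases after the start site and were taken from RefSeq on GRCm38.p6, in which 7 of the 10 members had an entry (Il10, Lrrc32 and Lgals1 were not matched). The window of Areg is chr5:91139349-91139648, that of Ebi3 is chr17:55952373-55952672, and the start sites of Il12a have chr3:68690394-68690693 and chr3:68691174-68691473, all on the plus strand. Capitals mark matches on either strand to 4 motifs that were searched, the TATA box TATAAA, the cyclic AMP response element TGACGTCA, the GC box GGGCGG and the AP-1 site TGACTCA.
Areg: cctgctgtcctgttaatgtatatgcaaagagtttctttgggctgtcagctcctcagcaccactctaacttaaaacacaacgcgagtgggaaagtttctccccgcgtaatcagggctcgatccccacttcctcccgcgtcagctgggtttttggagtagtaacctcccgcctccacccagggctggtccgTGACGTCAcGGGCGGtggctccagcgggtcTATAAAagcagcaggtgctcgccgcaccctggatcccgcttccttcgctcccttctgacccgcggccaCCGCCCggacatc
Ebi3: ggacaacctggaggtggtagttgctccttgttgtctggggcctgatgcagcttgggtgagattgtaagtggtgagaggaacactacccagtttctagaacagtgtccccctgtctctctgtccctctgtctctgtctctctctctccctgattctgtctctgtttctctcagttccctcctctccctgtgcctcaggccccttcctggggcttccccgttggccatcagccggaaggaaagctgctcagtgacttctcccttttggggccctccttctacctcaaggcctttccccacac
Il12a start site 1: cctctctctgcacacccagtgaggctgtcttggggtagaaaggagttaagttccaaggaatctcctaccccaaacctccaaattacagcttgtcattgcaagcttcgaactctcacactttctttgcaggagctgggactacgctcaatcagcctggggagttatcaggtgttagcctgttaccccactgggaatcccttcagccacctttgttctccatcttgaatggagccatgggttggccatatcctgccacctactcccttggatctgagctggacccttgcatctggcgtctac
Il12a start site 2: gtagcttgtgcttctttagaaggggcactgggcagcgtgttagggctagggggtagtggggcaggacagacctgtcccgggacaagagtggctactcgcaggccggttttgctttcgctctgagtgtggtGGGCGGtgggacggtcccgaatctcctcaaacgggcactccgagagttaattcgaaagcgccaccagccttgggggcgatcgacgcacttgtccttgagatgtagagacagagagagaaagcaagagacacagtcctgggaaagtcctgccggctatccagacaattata
In the Areg window TGACGTCA began 61 bases, GGGCGG 52 bases and TATAAA 31 bases before the start, and a GC box on the minus strand lay after it. Over all 32851 windows in the table TATAAA was found in 13.6%, TGACGTCA, which reads the same on both strands, in 1.79%, GGGCGG in 35.7% and TGACTCA in 5.20%. The Ebi3 window and the first window of Il12a held none of the 4 motifs, and the second window of Il12a held a GC box 120 bases before the start. The windows also differed in CpG pairs, of which Areg had 21, Ebi3 had 2, and Il12a had 3 at the first start site and 16 at the second. These matches describe the letters only, and no binding was measured at them here.

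Total counts per library were between 19032620 and 23159815, and the values below are CPM, counts per 1000000 of a library total that TMM scaling had corrected for differences in composition. In every list of values WT replicates 1, 2 and 3 come first, then cKO replicates 1, 2 and 3. WT replicate 2 stood apart from the other libraries, with 11513 genes counted against 14442 to 14737, and it had the lowest value of the 6 libraries in 42.7% of genes and the highest in 29.0%. The fitted difference of each member is therefore also given without it. The targeted gene Xrcc6 was at 20.9, 63.1 and 23.8 CPM in WT and at 5.24, 3.51 and 4.18 CPM in cKO, with no overlap between the groups. The log2 fold change, cKO over WT, was -3.06 (SE 0.48, unadjusted p 0.000306 and adjusted p 0.984 from edgeR), and without WT replicate 2 the adjusted p from edgeR was 0.0196, the only call among the 15302 genes then tested (0.00654%). The labelled cell type was checked with 9 Treg and T cell markers, all of which were present: Foxp3 was at 241, 150.4 and 208 CPM in WT and 282, 189 and 242 CPM in cKO, and Cd4, Il2ra and Ctla4 were at 191 CPM or above in every library. None of the 9 passed the adjusted or the unadjusted limit.

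Markers of other cells were present at different amounts, and their part in the results was not tested. The summed level of 15 macrophage and dendritic cell markers ran from 209.6 to 763 CPM in WT and from 262 to 1151 CPM in cKO. Lyz2, a lysozyme gene, gave 59.8% of that sum. Others reached high levels in single libraries, C1qb 111 CPM and Csf1r 85.7 CPM in cKO replicate 3 and Cd68 93.1 CPM in WT replicate 2. Itgax and Flt3 were at 2.21 CPM or less in every library. The sums were 11.5 to 20.5 against 15.6 to 19.6 CPM for 8 neutrophil markers, led by Cxcr2 (44.3%) and with Ly6g at 0.133 CPM or less, and 16.4 to 65.0 against 15.6 to 54.8 CPM for 7 B and plasma cell markers. Lung epithelium markers summed to 40.9 to 105.1 CPM in WT and 43.2 to 71.0 CPM in cKO over 9 genes. The endothelial and stromal sums were carried by Pecam1 (96.5%) and Thy1 (99.7%), which T cells also express. These sums were 60.9 to 86.5 against 70.6 to 95.6 CPM and 530.5 to 790.2 against 691 to 913 CPM. Cdh5, Kdr, Emcn, Dcn and Lum were at 1.11 CPM or less in every library. Tie1 reached 6.63 CPM in WT replicate 2, and Col1a1, Vwf and Acta2 were each above 1.11 CPM in at least 1 library. For 8 CD8 T and NK cell markers the sum was 5.26 to 28.6 CPM in WT and 29.4 to 31.4 CPM in cKO. It was the only one of these lists in which the groups did not overlap, where 8.24% of single genes in the table did not. Cd8b1 gave 60.4% of the sum but itself overlapped, at 18.5, 5.22 and 12.5 CPM in WT and 17.3, 17.6 and 17.9 CPM in cKO. Counted by direction, 11 of the 15 macrophage and dendritic cell markers were higher in cKO (median log2 fold change 0.89), as were 7 of 8 endothelial (1.20), 7 of 8 stromal (0.52), 6 of 9 lung epithelium (0.13), 5 of 7 B and plasma cell (0.78), 8 of 8 CD8 T and NK cell (0.81) and 6 of 8 neutrophil markers (0.26), many of them at low counts. Without WT replicate 2 the numbers higher were 13, 8, 6, 2, 7, 5 and 5 in the same order. Over all genes, 8343 of 15315 were higher in cKO with all libraries, and 7438 of 15302 without WT replicate 2. WT replicate 2 was at 0 CPM for several of the low markers, among them Prf1, Klrk1 and Cdh5. edgeR called 0 of these markers at the adjusted limit in either fit. The neutrophil genes S100a9 and Retnlg, named after their values were seen, passed the unadjusted limit in both fits. S100a9 was at 0.0956, 0 and 0.208 CPM in WT and 1.11, 1.35 and 1.91 CPM in cKO, and Retnlg was at 0 in every WT library and at 0.882, 0.625 and 1.51 CPM in cKO, so that neither overlapped between the groups (unadjusted p 0.0122 and 0.00237 from edgeR). The unadjusted limit was also passed by Vwf and Pax5 with all libraries, and by Vwf and Xcr1 without WT replicate 2. In bulk RNA, fewer cells of a type and less RNA per cell cannot be told apart.

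Il10 (chr1:131019845-131024974 of GRCm38) was at 159.6, 173 and 182 CPM in WT and at 108, 181 and 126 CPM in cKO. The WT libraries lay close together, cKO replicates 1 and 3 were below all of them, and cKO replicate 2 was within their range, so the groups overlapped. The means were 172 ± 11.3 CPM (SD, n = 3) in WT and 139 ± 38.0 CPM (SD, n = 3) in cKO, a log2 fold change of -0.31 with a 95% interval of -0.79 to 0.17. The p from edgeR was 0.176 before and 0.984 after adjustment, and p was 0.3 by the exact permutation test (two-sided). Leaving out WT replicate 2 gave a log2 fold change of -0.30, with an interval of -0.80 to 0.20. Il10 was lower in cKO under every alternative fit, by log2 fold changes of -0.55 to -0.16, and the ends of that range came from single libraries. Leaving out cKO replicate 1 gave -0.16, and leaving out cKO replicate 2 gave -0.55, with an unadjusted p of 0.0198 from edgeR that the adjusted limit did not pass.

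Ebi3 was at 102, 41.9 and 60.6 CPM in WT and at 76.0, 61.3 and 65.2 CPM in cKO. All cKO libraries lay between the highest and the lowest WT library, which were WT replicates 1 and 2. The means were 68.2 ± 30.9 CPM and 67.5 ± 7.67 CPM (SD, n = 3 each), with a log2 fold change of -0.02 and an interval of -0.74 to 0.70 (unadjusted p 0.960, adjusted p 0.996 from edgeR). Its value without WT replicate 2 was -0.27, with an interval of -0.75 to 0.20. Ebi3 (chr17:55952640-55957022) overlaps the antisense gene Gm16712. Strand use in the counting is not given in the sources used here, and an overlap of exons was not examined. Whether reads of the 2 genes were mixed is therefore not known.

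Il12a, whose p35 chain completes IL-35, was almost not counted. It had 8, 0 and 0 counts in WT and 2, 4 and 8 counts in cKO. The groups overlapped, and 3 of the 6 libraries were at or under 3 counts, the limit that a count of 0 allows, which was worth 0.133 to 0.156 CPM and covers counting error only. The group totals were 8 and 14 counts, and the fitted log2 fold change of 0.71 had an interval of -2.85 to 4.28 (unadjusted p 0.654 from edgeR), so that a difference of several fold in either direction was not detectable at this depth. Leaving out WT replicate 2 gave 0.14, with an interval of -2.63 to 2.91. WT replicate 1 was the only WT library with counts, so leaving it out fixed the direction in advance. Both remaining WT libraries were then at 0, and the cKO mean was 1.44 times their mean 3-count limit. That ratio takes no account of counting error in the cKO libraries, of which replicate 1 had 2 counts. The unadjusted p from edgeR was 0.0390, and the adjusted limit was not passed. Ebi3 thus had 891 to 2140 counts per library, where its IL-35 partner had 8 or fewer.

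Around these cytokines, 18 of 20 listed receptors, family members and regulators were in the table, and 9 were higher and 9 lower in cKO, with 0 past either limit and a median log2 fold change of 0.02, against 0.04 over all genes. Stat3, a transcription factor of IL-10 signaling, was at 801, 417 and 459 CPM in WT and 710.4, 570.1 and 499.9 CPM in cKO. WT replicate 1 was its highest and WT replicate 2 its lowest library, and the cKO libraries lay between them. Its log2 fold change was 0.09, and -0.09 without WT replicate 2, with an unadjusted p of 0.771 and 0.736 from edgeR.

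Lrrc32 (chr7:98489283-98502181) was at 443, 520.1 and 379.8 CPM in WT and at 495, 393 and 386 CPM in cKO. It had the least spread of the members, with the highest library 1.37 times the lowest, and the groups overlapped almost completely. The means were 448 ± 70.2 and 425 ± 61.2 CPM (SD, n = 3 each), the log2 fold change was -0.08 with an interval of -0.52 to 0.37, and 0.04 with an interval of -0.35 to 0.44 when WT replicate 2 was left out. Both fits leave a change of 2-fold outside the interval.

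Of 16 genes for TGF-beta and its release, 15 were in the table, 7 higher and 8 lower in cKO, with 0 called and a median log2 fold change of -0.09. Nrros, which encodes another docking protein of latent TGF-beta, was at 842, 1242 and 992 CPM in WT and 1110.1, 1008 and 1202 CPM in cKO, and Tgfb1 at 385, 354 and 282 CPM in WT and 375, 272 and 314 CPM in cKO. Both genes overlapped between the groups, with log2 fold changes of 0.11 and -0.09. Furin, whose protease cuts the TGF-beta precursor, was outside the rule for named genes and was chosen after its values were seen. It was at 170.0, 258 and 163 CPM in WT and 156, 139 and 123 CPM in cKO, a log2 fold change of -0.50 that passed the unadjusted limit alone (p 0.0485, adjusted p 0.984 from edgeR). All 3 cKO libraries were below the WT range, and leaving out WT replicate 2, the highest, gave -0.26 (unadjusted p 0.106 from edgeR).

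Nrp1 (chr8:128358604-128503363) was at 325, 223 and 406 CPM in WT and at 349, 312 and 355 CPM in cKO. The cKO libraries all lay inside the WT range, whose ends were WT replicates 2 and 3. The means were 318 ± 91.7 and 338 ± 23.5 CPM (SD, n = 3 each), with a log2 fold change of 0.09 and an interval of -0.45 to 0.63 (unadjusted p 0.706 from edgeR). The sign was the other, at -0.11, when WT replicate 2 was left out, with an interval of -0.48 to 0.26. Of the 26 semaphorin, VEGF, plexin and related genes listed with Nrp1, 13 were higher and 13 lower, and 0 passed either limit. A median under 1 CPM over the libraries was found in 13 of the 26, whose directions rest on low counts. Sema4d, a semaphorin of T cells, was at 324, 285 and 278 CPM in WT and 369, 313 and 329.9 CPM in cKO. The groups overlapped.

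Areg (chr5:91139599-91148432), whose upstream window is shown above, was at 499.8, 317 and 301 CPM in WT and at 368, 357 and 249 CPM in cKO. WT replicate 1 was the highest and cKO replicate 3 the lowest library, and of the other 4, WT replicates 2 and 3 lay below cKO replicates 1 and 2. The means were 373 ± 110.4 and 325 ± 66.2 CPM (SD, n = 3 each), a log2 fold change of -0.20 with an interval of -0.80 to 0.40 (unadjusted p 0.463 from edgeR). Leaving out WT replicate 2 made it -0.30, and leaving out WT replicate 1 made it 0.07. Of 16 listed EGF family ligands, receptors and sheddases, 13 were in the table, 8 higher and 5 lower in cKO, with 0 past either limit. The sheddase genes Adam10 and Adam17, whose products cut membrane proteins, amphiregulin among those of Adam17, led the list by CPM. Adam10 was at 84.7, 58.0 and 98.3 CPM in WT and 91.0, 94.1 and 94.7 CPM in cKO, and Adam17 at 56.2, 73.9 and 46.4 CPM in WT and 53.2, 47.0 and 48.5 CPM in cKO. In both the cKO libraries were inside the WT range.

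Among the 9 well-counted members, Lgals1 and Fgl2 had the widest spread. Lgals1 (chr15:78926725-78930465), whose galectin-1 binds sugars on activated T cells, was at 909, 198 and 532 CPM in WT and at 425, 851 and 540.3 CPM in cKO. The highest library was 4.60 times the lowest, both ends were WT libraries, and the cKO values lay between them. The means were 546 ± 356 and 605 ± 221 CPM (SD, n = 3 each). The log2 fold change of 0.15 had an interval of -1.06 to 1.36 (unadjusted p 0.781 from edgeR), the only interval among the 9 well-counted members that reached past a 2-fold change. Leaving out WT replicate 2 gave -0.25, with an interval of -0.99 to 0.49.

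Fgl2 (chr5:21372642-21378374), which encodes a secreted fibrinogen-like protein that binds inhibitory Fc receptors, was at 378, 139 and 257 CPM in WT and at 261, 316 and 222 CPM in cKO. WT replicates 1 and 2 were again the ends of the range. The means were 258 ± 119 and 266 ± 47.2 CPM (SD, n = 3 each), the log2 fold change was 0.04 with an interval of -0.76 to 0.85, and -0.26 with an interval of -0.75 to 0.23 once WT replicate 2 was left out. Fgl2 overlaps Ccdc146 on the other strand. Strand use is not given and an overlap of exons was not examined, so whether reads of the 2 genes were mixed is not known. Of 13 listed galectin, galectin-related, fibrinogen-like and Fc receptor genes, 10 were in the table, 8 higher and 2 lower, with 0 past either limit. The fibrinogen-like gene Fgl1 was not in the table, and the Fc receptor genes Fcgr2b, Fcgr3 and Fcgr4 were among the 10. Lgals9, the ligand gene of TIM-3, was at 189.8, 175 and 189 CPM in WT and 171, 208 and 228 CPM in cKO, and Lgals3bp at 158, 63.8 and 99.4 CPM in WT and 117, 142 and 153 CPM in cKO. Both overlapped between the groups. Macrophages are known to express Lgals1 and Fgl2 too. The sums of the 15 macrophage and dendritic cell markers were 209.6, 717 and 763 CPM in WT and 262, 615 and 1151 CPM in cKO. Whether macrophage RNA had a part in the values of Lgals1 and Fgl2 was not tested.

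The ectoenzyme genes Entpd1 and Nt5e were lower in cKO by their means, without passing the test. Entpd1 (chr19:40612366-40741602) was at 83.4, 54.8 and 50.4 CPM in WT and at 42.4, 59.8 and 46.7 CPM in cKO. WT replicate 1 stood above all others, and the remaining 5 libraries were mixed between the groups. The means were 62.9 ± 17.9 and 49.6 ± 9.09 CPM (SD, n = 3 each), a log2 fold change of -0.34 with an interval of -0.89 to 0.21 (unadjusted p 0.189, adjusted p 0.984 from edgeR). The value without WT replicate 2 was -0.43, with an interval of -0.95 to 0.09 and an unadjusted p of 0.0944 from edgeR, the lowest of the 10 genes in that fit. Without WT replicate 1 it was -0.08. The processed pseudogenes Gm16027 and Gm8783 lie inside Entpd1 on the same strand, and how reads there were assigned is not given in the sources used here.

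Nt5e (chr9:88327197-88372092) was at 372, 375 and 295 CPM in WT and at 338, 294 and 243 CPM in cKO. WT replicates 1 and 2 were above all cKO libraries, and WT replicate 3 was below cKO replicate 1, so the groups overlapped. The means were 347 ± 45.8 and 292 ± 47.4 CPM (SD, n = 3 each), a log2 fold change of -0.25 with an interval of -0.69 to 0.18. The unadjusted p from edgeR was 0.217, with p = 0.2 by the exact permutation test. With WT replicate 2 left out it was -0.19, with an interval of -0.61 to 0.23. Per kilobase of exon, Nt5e was 4.86, 7.46 and 6.35 times as high as Entpd1 in WT and 8.69, 5.35 and 5.67 times in cKO, and this ratio did not differ beyond its spread (6.22 ± 1.31 against 6.57 ± 1.84, SD, n = 3 each, exact two-sided permutation test p = 0.8).

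The other genes of extracellular nucleotides and adenosine were not shifted together. Of 37 listed enzymes, transporters and receptors, 34 were in the table, 21 higher and 13 lower in cKO, with 0 past either limit and a median log2 fold change of 0.10, and without WT replicate 2 they were 18 higher and 16 lower. Adora2a, the receptor gene named above, was at 167, 332 and 179 CPM in WT and at 179, 179 and 180.3 CPM in cKO. All libraries but WT replicate 2 were within a narrow range, and the log2 fold change was -0.33 with that library and 0.05 without it. P2ry10, a receptor gene of lysophospholipids, was at 263, 164 and 255 CPM in WT and 245, 300.0 and 259 CPM in cKO. WT replicate 2 was the lowest library there, and the log2 fold change was 0.24 with it and 0.05 without it.

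In the fit without WT replicate 2, the companion genes of the other lists had 8 higher and 10 lower for the cytokines. The numbers were 6 and 9 for TGF-beta release, 15 and 11 for the neuropilin genes and 7 and 6 for the EGF family. For the galectin, galectin-related and Fc receptor genes they were 7 and 3. None was called by edgeR at the adjusted limit. Tgfb3 and Plxnd1 passed the unadjusted limit there, and were named after their values were seen, with log2 fold changes of 0.69 and -0.42. Besides the neuropilin genes, other lists also held genes with a median under 1 CPM over all libraries. These were 4 for the cytokines, 4 for TGF-beta release, 5 for the EGF family and 7 for the nucleotide and adenosine genes. Their directions rest on low counts.

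**Figure D1:**
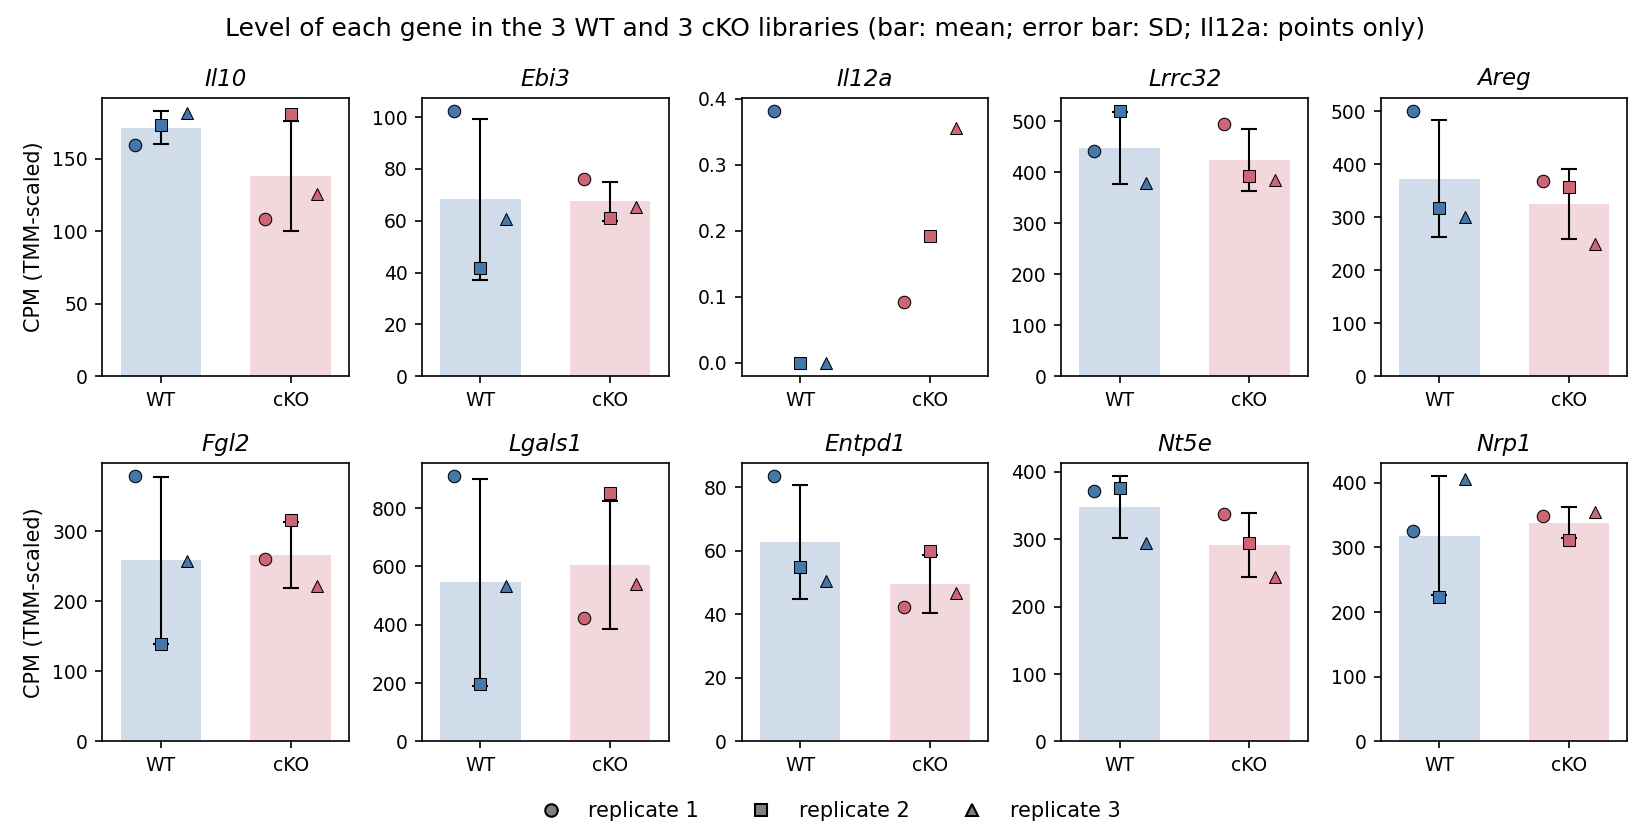
TMM-scaled CPM (vertical axes, linear, 1 scale per gene) of the 10 genes in the 3 WT and 3 cKO libraries, with circles, squares and triangles for replicates 1, 2 and 3, bars for group means and error bars for the SD. In every panel the WT and cKO points overlap, and WT replicate 2 is the lowest point for Ebi3, Fgl2, Lgals1 and Nrp1. Il12a, at 8 counts or fewer per library, is drawn as points only.

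Across the 10 genes, 6 had a lower and 4 a higher fitted value in cKO, where 45.5% of all genes were lower. The median of the 10 log2 fold changes was -0.05, against 0.04 over all genes. Without WT replicate 2, 8 were lower and 2, Il12a and Lrrc32, were higher, where 51.4% of all genes were lower, and the medians were -0.25 for the 10 and -0.01 for all genes. In that fit 0 of the 10 passed the adjusted limit and 0 the unadjusted one, which 3.01% of all genes passed. All 10 still overlapped between the groups, when 16% of all genes did not. Of the 9 genes with at least 10 CPM in both groups, 8 had an interval within a 2-fold change in either direction with all libraries, and all 9 did without WT replicate 2. The summed CPM of the 10 genes was 3272, 2041 and 2463 in WT and 2463, 2825 and 2233 in cKO, with overlapping groups.

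**Figure D2:**
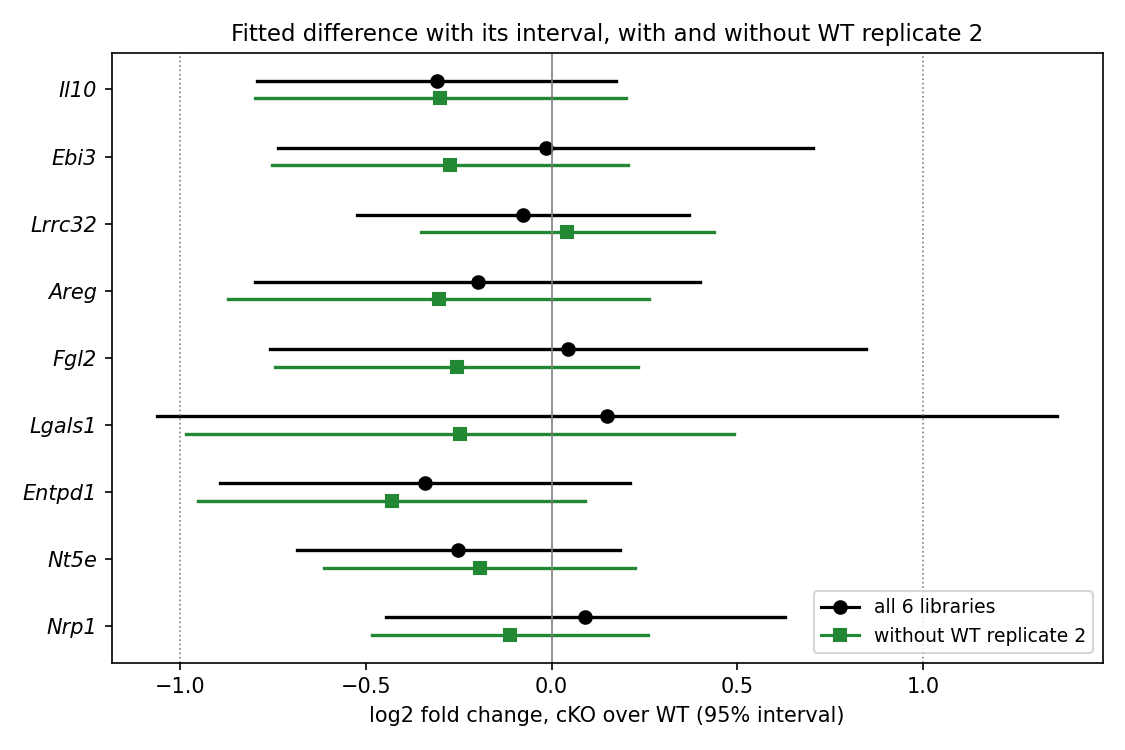
Fitted log2 fold change of cKO over WT (horizontal axis) of the 9 genes with at least 10 CPM in both groups, with the 95% interval, for all 6 libraries (black circles) and without WT replicate 2 (green squares). Dotted lines mark a 2-fold change either way. Every interval holds 0, and the black interval of Lgals1, from -1.06 to 1.36, is the widest.

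The highest values of these genes fell mostly in WT replicate 1, and the lowest were spread over WT and cKO libraries. WT replicate 1 had the highest value of the 6 libraries in 6 of the 10 genes, Ebi3, Il12a, Areg, Fgl2, Lgals1 and Entpd1, as it did in 18.2% of all genes. WT replicate 2 had the lowest value in Ebi3, Fgl2, Lgals1 and Nrp1, as it did in 42.7% of all genes. It had the highest in Lrrc32 and Nt5e, as it did in 29.0% of all genes. Neither count of WT replicate 2 was above its share, while the count of WT replicate 1 was, which was not tested. The SD was larger in WT than in cKO for 7 of the 9 well-counted genes, with Il10 and Nt5e the others. Counting error was 0.910% to 2.91% of the value for these 9 and 52.2% for Il12a, against a spread between libraries of 6.60% to 65.2% (SD over mean) in WT and 6.93% to 36.4% in cKO for the 9.

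Transcript length moved with these departures. Among genes of at least 10 CPM, the median log2 ratio of WT replicate 2 to the mean of the other libraries was -0.76 for 361 genes with under 1 kb of exon, -0.15 for 1572 genes of 1 to 2 kb, -0.01 for 3200 genes of 2 to 4 kb and 0.09 for 3191 longer genes. In WT replicate 1 the medians ran the other way, from 0.34 for the shortest to -0.10 for the longest, and cKO replicate 2 had 0.33 and -0.12. Lgals1, with 800 bases of exon the shortest of the 10, had a ratio of -1.72 in WT replicate 2, 0.84 in WT replicate 1 and 0.71 in cKO replicate 2. Length did not order all members, since Fgl2, with 3788 bases, had -1.04 in WT replicate 2, and Nrp1, with 3597, had -0.65, while Nt5e, with 3995, had 0.28. The part of length in the group comparison was not tested.

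**Figure D3:**
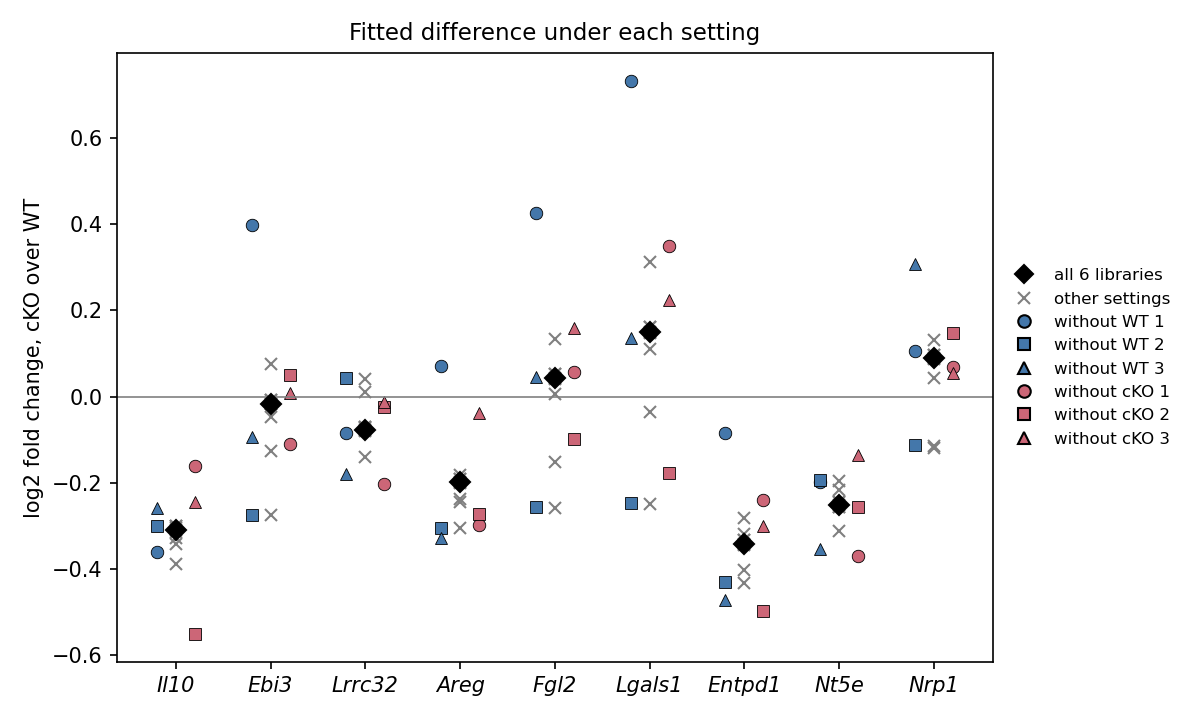
Fitted log2 fold change of cKO over WT (vertical axis) of the 9 well-counted genes with all 6 libraries (black diamonds), with each library left out (blue for WT, red for cKO, with circle, square and triangle for replicates 1, 2 and 3) and under the other settings (grey crosses). Il10, Entpd1 and Nt5e stay below 0 at every point, and the other 6 have points on both sides of 0, with Lgals1 from -0.25 to 0.73.

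Set against each other per kilobase of exon, the members spanned a wide range of levels. Lgals1 was the highest at a mean of 719.6 ± 333 CPM per kb (SD, n = 6; lowest 247, median 669.9, highest 1136), followed by Areg at 287 ± 70.4 and Il10 at 118 ± 23.6. Lrrc32, Nrp1, Nt5e, Fgl2 and Ebi3 followed at 95.3 ± 13.2, 91.2 ± 16.9, 80.0 ± 12.9, 69.2 ± 21.5 and 58.8 ± 17.5 CPM per kb. Entpd1 was at 12.9 ± 3.36, and Il12a at 0.124 with libraries from 0 to 0.279. Neighbours in this order overlapped between libraries, except that every library had Areg above Il10, Ebi3 above Entpd1 and Entpd1 above Il12a with no overlap of the ranges. Among 14780 genes with a known length, Lgals1 was at the 99.2 percentile, Areg at 98.2, Entpd1 at 70.8 and Il12a at 16.9, and the other 6 lay between 92.2 and 96.1. The CD73 gene was thus counted several times more densely than the CD39 gene that acts before it. Lengths came from the GENCODE vM21 annotation of GRCm38, which may not be the authors' own.

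**Figure D4:**
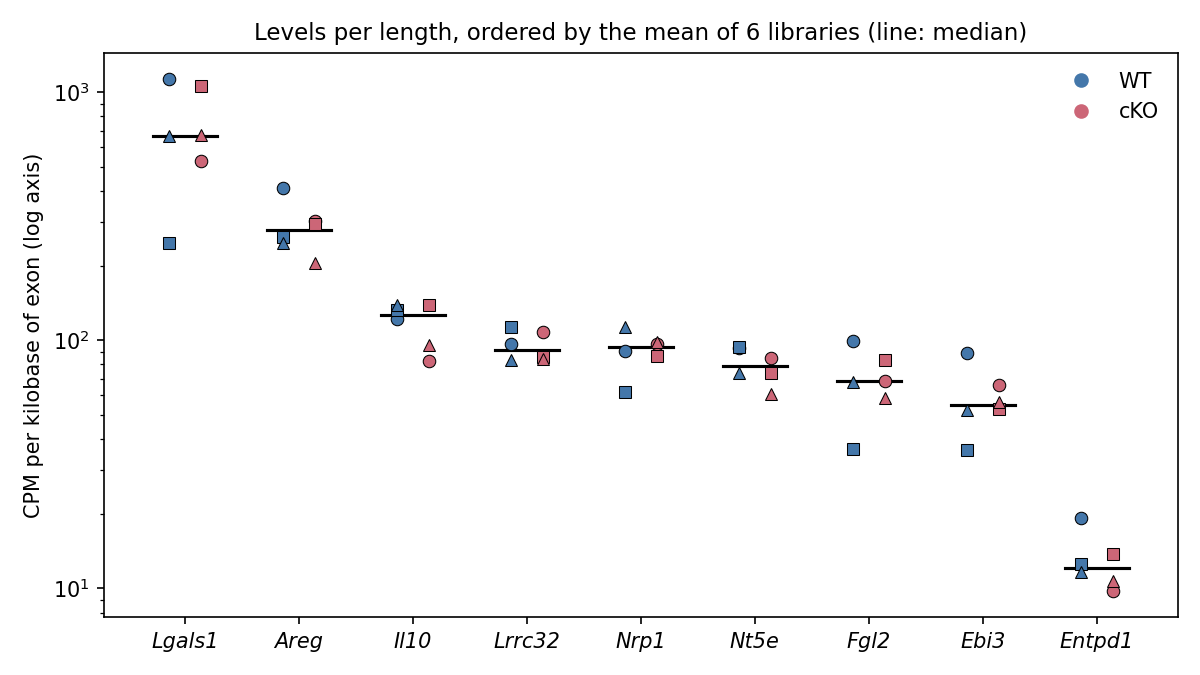
CPM per kilobase of exon (vertical axis, log scale) of the 9 well-counted genes in each library, blue for WT and red for cKO, with circles, squares and triangles for replicates 1, 2 and 3 and a line at the median of 6. Lgals1 is at the left with a median of 669.9 and Entpd1 at the right with 12.1, and both colors overlap for every gene.

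The genes whose profiles over the 6 libraries were closest to those of the 3 most abundant members by CPM were found by the root-mean-square distance between centred log2 profiles, among 8447 genes. For Lgals1 they were S100a4, at a distance of 0.0858, and Uqcrh, at 0.116, where the median gene was at 0.756. S100a4, a calcium-binding protein gene, was at 349, 74.0 and 237 CPM in WT and 175, 358 and 211 CPM in cKO, high and low in the same libraries as Lgals1. For Lrrc32 the closest were Kif3b at 0.0317 and Mthfd1 at 0.0373, with a median gene at 0.290, and for Areg they were Gdpd5 at 0.0610 and Odc1 at 0.0818, with a median gene at 0.399. These distances are descriptions over 6 libraries that share depth and composition effects, and were not tested.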

How the data were processed

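Tumor-infiltrating Tregs were measured by RNA-Seq in 3 WT and 3 cKO libraries. For each gene symbol the authors deposited expected counts that were not normalized, from 150 bp paired-end reads made on the BGI-Seq500 platform and aligned to GRCm38. The submitters' processing notes name Bowtie2 2.3.4.3 and RSEM 1.3.1, and the annotation and strand setting are not given in the sources used here. Fractional values made up 21.6% of the table, and all were rounded.

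Genes with at least 1 count were TMM scaled and compared with edgeR 4.0.16 (quasi-likelihood test, Benjamini-Hochberg adjustment over 15315 genes) in R 4.3.3. Single values were compared with exact two-sided permutation tests (SciPy 1.17.1). Alternatives were DESeq2 1.42.0, limma 3.58.1 voomWithQualityWeights, median-of-ratios or library size scaling, filterByExpr (minimum count 10), robust dispersion, a block for the replicate number, leaving out each library, and the study's limits (p under 0.05 with a log2 fold change of 1 or more in size). List counts without WT replicate 2 were added after seeing the data. Scripts were tested on simulated data. The planted changes were larger than those fitted for the well-counted members, so detection of smaller changes was not examined.

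The members and lists were chosen with earlier results of these data known. Besides the 10 members, the 2 genes of highest mean CPM per list were named (some genes of this rule are not reported here), any gene past the adjusted limit, and, for the 3 most abundant members, the 2 genes with the closest profiles of log2(CPM + 0.5) among genes of at least 10 CPM.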

Additional observations from a re-analysis of the deposited data

How the results depend on the processing

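None of the 10 genes was called under any of the 14 alternatives, and 120 of 139 values kept their direction. Il10, Entpd1 and Nt5e were lower in cKO in every alternative fit. With each library left out in turn, 0 to 1 genes of the table were called, 65 to 874 passed an unadjusted p under 0.05 against 277 with all libraries, and 0 to 1 of the 10 did (Il12a without WT replicate 1, Il10 without cKO replicate 2). DESeq2 called 2 genes of the table, and 3 without WT replicate 2. Under the study's limits 181 genes passed in the edgeR fit and 149 in DESeq2, the test that the study used. The unadjusted count was 140 under filterByExpr, which removed Il12a, and 543 under voomWithQualityWeights. The replicate block left 85, and since same-numbered libraries did not deviate together (correlations of -0.01, -0.21 and 0.20), the numbers were not taken as pairs.

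The direction turned in 19 values. DESeq2 without WT replicate 2 gave 0.041 for Lrrc32, -0.26 for Fgl2, -0.25 for Lgals1 and -0.11 for Nrp1, and voomWithQualityWeights gave 0.0097, -0.15, -0.035 and -0.12 for the same genes. Ebi3 was at 0.075 with the replicate block. Leaving out each library in turn gave log2 fold changes from -0.27 to 0.40 for Ebi3, -0.20 to 0.043 for Lrrc32, -0.33 to 0.072 for Areg, -0.26 to 0.42 for Fgl2, -0.25 to 0.73 for Lgals1 and -0.11 to 0.31 for Nrp1. WT replicate 1 set the upper end for Ebi3, Areg, Fgl2 and Lgals1, and WT replicate 2 the lower end for Ebi3, Fgl2, Lgals1 and Nrp1. Ebi3 also turned without cKO replicate 2 or 3, and Fgl2 and Lgals1 without cKO replicate 2. The causes were not tested. Counting error was below the spread between libraries for every well-counted gene, and Il12a had 8 or fewer counts per library.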
